A study of Homo sapiens with 21 samples.

Results

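Cells lacking PAX6 were compared with unedited cells among islet cells that had received a vector carrying ISL1. Members were chosen by their labels alone: the 3 count columns labelled PAX6 knockout with ISL1 and the 2 labelled wild type (WT) with ISL1, which are 5 of the 21 libraries of the series, compared over all 25884 genes that passed a filter on low counts. All libraries came from H1, a human embryonic stem cell line, differentiated with a modified protocol for stem cell-derived islets. On day 11 the cells received lentivirus, either with ISL1 joined to the blue marker BFP or with the marker only, and on day 18 the marked cells were taken by flow sorting. The genotypes are labelled PAX6-/- and WT, and whether the knockout line is 1 clone is not given in the sources used here. The same genotype comparison with the BFP vector, again 3 libraries against 2, uses other libraries throughout and is given beside it.

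PAX6 is a transcription factor with a paired domain and a homeodomain that is made in all pancreatic endocrine cells and in the gut's hormone cells, the eye and the brain. Mice without it are known to have few glucagon cells and an excess of cells that make ghrelin, a hormone of the stomach and of the epsilon cells of the fetal islet. ISL1, the gene carried by the vector, is a LIM homeodomain transcription factor that endocrine cells switch on after NEUROG3, the factor that starts the endocrine programme.

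In PAX6-/- cells with the ISL1 vector, the glucagon gene GCG and the genes of 6 other peptide hormones fell, the ghrelin gene GHRL rose, and several islet genes of nutrient sensing, among them G6PC2, FFAR1 and CASR, had at most 1.34 CPM in any PAX6-/- library. NEUROG3 and SOX2 were higher. Levels are CPM, read counts divided by the scaled library size in M, and differences are log2 fold changes of PAX6-/- over WT (log2 change for short) with their standard error (SE). A gene is said to have risen or fallen where its adjusted p was under 0.05 in edgeR. In bulk RNA, fewer cells of a type and less RNA per cell cannot be told apart. Whether libraries of a group came from separate differentiations is not stated beyond their description as biological replicates, so p-values measure the spread between these samples.

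One library stands apart and was therefore left out in a second fit, given beside many of the results. Mitochondrial genes took 3.16% of the counts of PAX6-/- replicate 3, against 1.39% to 1.93% in the other 4 libraries, at total counts of 46.9 to 56.2 M in the 5 libraries. Genes with less than 2 kb of exon sequence (779 genes) had a median in this library that was 1.5 higher on the log2 scale than the mean of the other PAX6-/- libraries, and genes with more than 6 kb (5183 genes) a median that differed by -0.71. Between the WT libraries with ISL1 the short genes differed by 0.148 and the long genes by 0.108. Replicate 3 was the highest of the 3 PAX6-/- libraries in 242 of the 327 genes that rose (74.0%), against 43.0% of all genes tested. It was the lowest in 364 of the 595 that fell (61.2%), against 45.5% of all genes tested. Values without replicate 3 are given for many of the results below, but not for all.

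**Figure D1:**
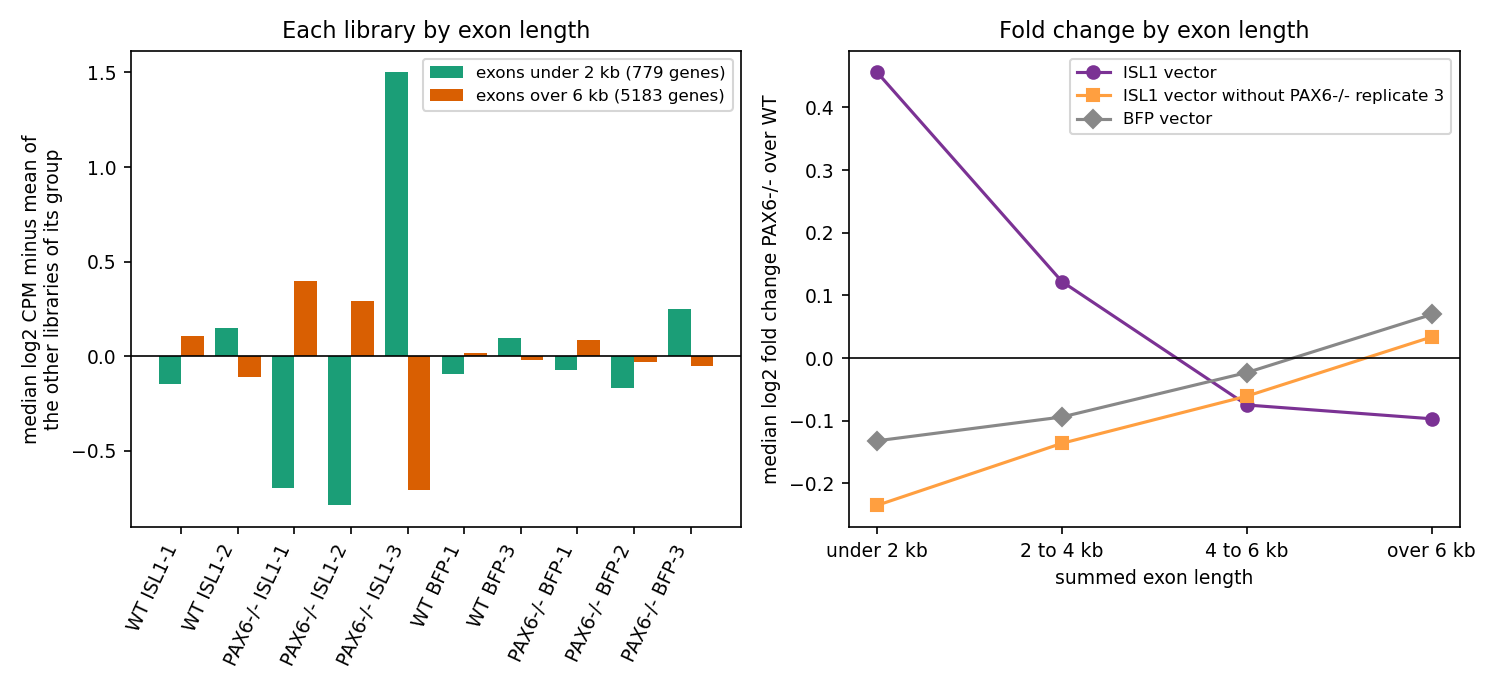
Left, for each WT and PAX6-/- library, the median difference in log2 CPM from the mean of the other libraries of its group, for genes with under 2 kb and over 6 kb of exon. Right, the median log2 change of PAX6-/- over WT in 4 classes of exon length. PAX6-/- replicate 3 with ISL1 is the only library with a short-gene median above 1, and leaving it out turned the median fold change of short genes from 0.46 to -0.24.

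Both WT libraries held the defining islet transcripts GCG, INS and CHGA at high levels. The gene counts do not check the genotype label. PAX6 (ENSG00000007372.25, chromosome 11, 31784779 to 31817961, minus strand, GRCh38) had 166 and 145 CPM in the WT libraries and 124, 94.9 and 318 CPM in PAX6-/- replicates 1, 2 and 3. These ranges overlap, and the log2 fold change was 0.20 (SE 0.45, adjusted p = 0.856 in edgeR) or -0.51 without replicate 3. Where the edit lies in the gene is not given in the sources used here, so transcripts of an edited allele may still be counted. ISL1, which the vector carries, had 361 and 338 CPM in WT and 166, 126 and 356 CPM in PAX6-/-, against 306 and 519 CPM in WT with BFP, so its counts did not separate the vectors either. Directions below rest on the labels. On the scale set by the 1425 genes called between the BFP groups, where WT with BFP is 0 and PAX6-/- with BFP is 1, the 3 PAX6-/- libraries with ISL1 had medians of 0.85, 0.87 and 0.98, and the 2 WT libraries 0.23 and 0.14.

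The promoters of GCG, G6PC2 and GHRL are shown because these are the hormone gene that fell furthest, an islet glucose gene that was nearly silent and the hormone gene that rose, and PAX6 binds DNA partly through a homeodomain whose core is TAAT. The sequences are the 250 bases before the RefSeq gene start on assembly GRCh38.p14, 5′ to 3′ on the gene's own strand, and capitals mark TAAT and its reverse complement ATTA.
GCG (chr2:162152248-162152497, minus strand): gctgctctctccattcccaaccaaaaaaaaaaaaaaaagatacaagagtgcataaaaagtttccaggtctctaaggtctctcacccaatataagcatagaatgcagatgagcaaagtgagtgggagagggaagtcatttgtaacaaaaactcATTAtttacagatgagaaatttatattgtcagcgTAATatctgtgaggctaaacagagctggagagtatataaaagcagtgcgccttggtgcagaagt
G6PC2 (chr2:168901041-168901290, plus strand): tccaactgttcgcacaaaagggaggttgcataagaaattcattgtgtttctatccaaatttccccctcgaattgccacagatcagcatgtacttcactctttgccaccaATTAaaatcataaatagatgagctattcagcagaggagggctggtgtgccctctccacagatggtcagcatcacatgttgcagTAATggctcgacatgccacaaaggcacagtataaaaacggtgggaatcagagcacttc
GHRL (chr3:10292948-10293197, minus strand): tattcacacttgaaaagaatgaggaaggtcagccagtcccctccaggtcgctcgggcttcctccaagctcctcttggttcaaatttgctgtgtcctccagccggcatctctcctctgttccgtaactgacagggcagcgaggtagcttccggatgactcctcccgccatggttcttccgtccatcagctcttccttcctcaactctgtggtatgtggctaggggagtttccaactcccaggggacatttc
The promoters of GCG and G6PC2 each held 2 copies of the core, and that of GHRL held 0, as did that of CAT, another gene that fell. The core was in 36.2% of the 14713 promoters of tested genes and in 48.2% of all 27195 promoters of that length in the table. TAAT followed after 2 or 3 bases by ATTA, the paired arrangement, was in 0.761% of all and in none of the 3 shown. A match is no binding site, and only 623 of the 922 called genes had a promoter in the table, so shares over the called genes were not compared.

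With the ISL1 vector, 922 of 25884 genes (3.56%) passed, of which 327 (1.26%) were higher and 595 (2.3%) were lower in PAX6-/-. Without PAX6-/- replicate 3, 697 (2.69%) passed, with 216 (0.834%) higher and 481 (1.86%) lower. Of the 922 genes, 568 passed both times, and all 922 had the same sign without the library. No called gene had overlapping groups, while groups did not overlap in 31.57% of all genes tested. The median log2 fold change over all genes was 0.13, or 0.04 without replicate 3. With 2 WT libraries, the count depends on both: it was 185 without WT replicate 1 and 247 without WT replicate 2, and 146 genes (13 higher, 133 lower) passed whichever of the 5 libraries was left out. Protein-coding genes made up 94.6% of the genes that fell and 63.9% of those that rose, against 62.8% of all tested.

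The largest fall at a level of at least 10 CPM in WT was that of LINC02864, a long non-coding RNA. It had 18.1 and 21.9 CPM in WT and a count of 0 in all 3 PAX6-/- libraries, which is at least 358.3-fold lower when 0 is read as a floor of 3 counts per library. G6PC2 (ENSG00000152254.11, chromosome 2, 168901291 to 168910000, plus strand), the islet form of the catalytic subunit of glucose-6-phosphatase, had 133 and 94.4 CPM in WT. It had a count of 0 in PAX6-/- replicates 1 and 2 and 0.0839 CPM in replicate 3. All PAX6-/- libraries lay far below both WT libraries, with a log2 change of -12.03 (SE 1.31, adjusted p = 0.000122). Without replicate 3 it was at least 2177-fold lower.

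FFAR1, the receptor for long-chain fatty acids on islet cells, had 71.0 and 59.3 CPM in WT and 0.0388, 0.325 and 0.126 CPM in PAX6-/- replicates 1 to 3. Its log2 fold change was -8.56 (SE 0.85, adjusted p = 2.35e-05), or -8.39 without replicate 3. CASR, the calcium-sensing receptor, had 185 and 102 CPM in WT and 1.34, 1.13 and 0.629 CPM in PAX6-/-, a log2 change of -7.11 (SE 0.70, adjusted p = 1.99e-05). For CASR it was -6.86 without replicate 3. Every PAX6-/- library lay far below both WT libraries in both receptors, with 30 to 73 counts left for CASR. SLC6A4, the serotonin transporter, had a log2 change of -5.22, TLR4, a receptor of innate immunity, of -4.70, and TMEM236 of -6.34. All 12 of the largest falls passed whichever of the 5 libraries was left out.

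CAT, which encodes the peroxide-degrading enzyme catalase, had the smallest adjusted p among these falls. It had 72.5 and 67.2 CPM in WT and 0.601, 0.572 and 1.41 CPM in PAX6-/-, with a log2 change of -6.35 (SE 0.39, adjusted p = 1.16e-07), or -6.89 without replicate 3. With the BFP vector its log2 fold change was -6.40, and group means were 93.6 to 166 CPM in the ISL1-/- and PDX1-/- groups. CAT (chromosome 11, 34438934 to 34472060, plus strand) lies 2.62 Mb from PAX6 on the same chromosome. Of the 18 genes between them with at least 1 CPM, 2 fell and 0 rose, against 2.3% and 1.26% of all genes tested. The median log2 fold change of the 18 was -0.39. It was -0.03 over the 658 genes of chromosome 11 with at least 10 CPM in the higher group. Whether the place near PAX6 plays a part was not tested. LMO2, a LIM-only transcription cofactor, had 54.7 and 41.8 CPM in WT and 2.77, 3.22 and 5.31 CPM in PAX6-/-, a log2 change of -3.68 (adjusted p = 0.000229). DEPDC7 had -1.73 (adjusted p = 0.0471) and lost its call when any 1 of the 5 libraries was left out, with adjusted p reaching 0.262. These 2 genes were picked out after their values were seen.

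**Figure D2:**
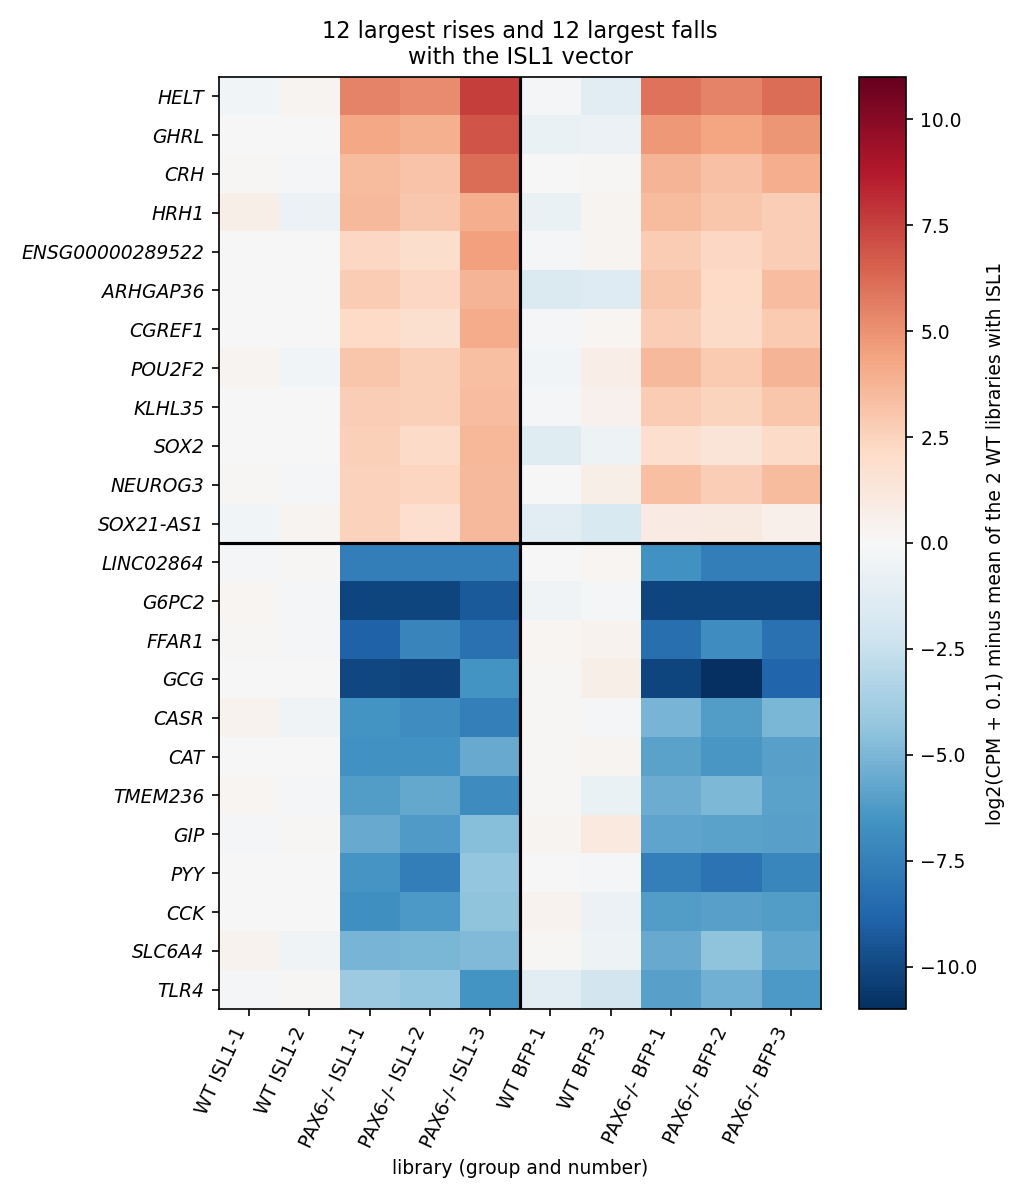
The 12 largest rises (top) and 12 largest falls (bottom) with the ISL1 vector in the 10 WT and PAX6-/- libraries, as log2 CPM with a small offset minus the mean of the 2 WT libraries with ISL1. Among the 3 PAX6-/- libraries with ISL1, replicate 3 is the highest in all 12 rises and in 7 of the 12 falls. Over all genes tested it is the highest in 43.0%.

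GHRL (ENSG00000157017.16, chromosome 3, 10285666 to 10292947, minus strand) had 126 and 129 CPM in WT and 2481, 1933 and 15330 CPM in PAX6-/- replicates 1, 2 and 3. Every PAX6-/- library was above both WT libraries, and replicate 3 was far above the others. The log2 fold change was 5.69 (SE 0.76, adjusted p = 0.000457), or 4.11 without replicate 3 (adjusted p = 6.64e-06). The strand setting of the counting is not stated, and reads of an antisense gene at the same place cannot be told apart.

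HELT, a basic helix-loop-helix factor known from midbrain neurons, had 0.147 and 0.271 CPM in WT and 13.0, 10.8 and 59.1 CPM in PAX6-/-. It was almost silent in WT and present in every PAX6-/- library, with a log2 change of 7.03 (SE 1.07, adjusted p = 0.00126). It was 5.81 without replicate 3, and the adjusted p was 0.0512 without WT replicate 1. CRH, the corticotropin-releasing hormone, had 27.0 and 21.9 CPM in WT and 278, 215 and 1738 CPM in PAX6-/-, a log2 change of 4.92, or 3.33 without replicate 3. HRH1, a histamine receptor, rose by 3.48, ARHGAP36 by 3.13, the POU factor POU2F2 by 3.03, KLHL35 by 2.99, CGREF1 by 3.10 and the gene ENSG00000289522 by 3.40 on the log2 scale. Without replicate 3 HRH1 was at 3.20, ARHGAP36 at 2.61, KLHL35 at 2.71, CGREF1 at 2.03 and ENSG00000289522 at 2.11. Only GHRL and NEUROG3 of the 12 largest rises passed whichever library was left out. SOX21-AS1 lost its call without WT replicate 1 (adjusted p = 0.0847), HRH1 without WT replicate 2 (adjusted p = 0.142), and CRH, ARHGAP36, POU2F2, KLHL35, CGREF1, SOX2 and ENSG00000289522 without either, with adjusted p reaching 0.17.

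The 13 genes that rose whichever library was left out, picked after their values were seen, were of mixed kinds. Of the 15 neuron and glia genes tested as a list, 0 passed in edgeR, and their median was 0.14, or -0.44 without replicate 3. SRRM4, a splicing factor of neurons, had 10.4 and 6.46 CPM in WT and 49.7, 37.6 and 60.7 CPM in PAX6-/-, a log2 change of 2.55 (SE 0.32, adjusted p = 0.000263), or 2.38 without replicate 3. SV2C, a membrane protein of synaptic vesicles, had 0.546 and 0.417 CPM in WT and 9.10, 7.22 and 8.62 CPM in PAX6-/-. Neither gene had overlapping groups, and replicate 3 did not stand out in SV2C. The log2 fold change of SV2C was 4.10 (SE 0.64, adjusted p = 0.0016), or 4.08 without replicate 3. GRM7, a glutamate receptor, rose by 3.50, SLC12A5, a potassium chloride cotransporter of neurons, by 1.83, PHACTR3 by 2.83, VSTM2B by 2.61, TBX22 by 4.95, ZBTB16 by 1.72, CLDN5 by 1.87, C20orf85 by 3.18 and LINC03053 by 4.28 on the log2 scale, beside GHRL and NEUROG3. TBX22, LINC03053, C20orf85 and VSTM2B lay at low levels. Their means were 0.0418, 0.0315, 0.136 and 0.272 CPM in WT and 1.37, 0.649, 1.255 and 1.67 CPM in PAX6-/-. Of the 13, 11 also rose with the BFP vector, and 109 of the 133 genes that fell in every leave-out also fell.

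Of 19 peptide hormone genes tested, 7 fell and 1 rose (9 and 1 without replicate 3), and their median log2 fold change was -2.42 against 0.13 over all genes. Without replicate 3 it was -3.54, against 0.04 over all genes. For this and each list below, the shares over all genes tested were 2.3% lower and 1.26% higher. Without replicate 3 these shares were 1.86% and 0.834%. Counts of 1 or 2 in a list are given for the genes, not as a result about the list. GCG (ENSG00000115263.15, chromosome 2, 162142882 to 162152404, minus strand), the preproglucagon gene of alpha cells, had 34370 and 31160 CPM in WT and 32.0, 28.1 and 339 CPM in PAX6-/- replicates 1, 2 and 3. No PAX6-/- library came near the WT libraries, and replicate 3 was the highest of the 3. The log2 fold change was -7.95 (SE 1.11, adjusted p = 0.000654), or -10.09 without replicate 3.

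Besides GCG, 5 hormone genes known from the gut fell, while MLN, motilin (-1.77, adjusted p = 0.122), and NTS, neurotensin (2.21, adjusted p = 0.0634), did not pass. NTS had 246 CPM in PAX6-/- replicate 3, and without that library its log2 change was 0.95 (adjusted p = 0.279). PYY, peptide YY, had 92.2 and 101 CPM in WT and 1.01, 0.387 and 4.99 CPM in PAX6-/-, a log2 change of -5.52 (SE 0.97, adjusted p = 0.0037). CCK, cholecystokinin, had 233 and 215 CPM in WT and 2.02, 2.72 and 10.3 CPM in PAX6-/-, a log2 change of -5.48 (SE 0.99, adjusted p = 0.00469). Replicate 3 was the highest PAX6-/- library in both genes and still far below WT. Without that library the log2 changes were -7.13 for PYY and -6.56 for CCK. GIP, the incretin of gut K cells, had a log2 change of -5.59 (adjusted p = 0.00711), and SCT, secretin, of -3.40 (adjusted p = 0.00267). GAST, gastrin, had -3.74 (adjusted p = 0.0331) and IAPP, the amyloid peptide of beta cells, -3.51 (adjusted p = 0.0305). Without replicate 3 GAST was at -4.44 and IAPP at -4.71. Both of the latter lost the call without PAX6-/- replicate 1 or 2 or either WT library, with adjusted p reaching 0.149 for GAST and 0.142 for IAPP. GAST, IAPP and SCT lie outside the rule for named genes and were picked after their values were seen.

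The insulin gene INS had 8382 and 6918 CPM in WT and 700, 970 and 2787 CPM in PAX6-/- replicates 1, 2 and 3. The groups did not overlap, but the log2 change of -2.37 (SE 0.95, adjusted p = 0.203) did not pass. It was -3.20 without replicate 3 (adjusted p = 0.14). With PDX1-/- with ISL1 replicate 4, which is not part of the comparison but enters the shared spread, also left out, it was -3.21 and passed (adjusted p = 4.22e-06). SST, the somatostatin gene of delta cells, had 159 and 149 CPM in WT and 8.57, 6.14 and 71.8 CPM in PAX6-/-. Its log2 fold change was -2.42 (adjusted p = 0.124) with replicate 3 and -4.39 (adjusted p = 0.00302) without it. PPY, pancreatic polypeptide, was likewise at -3.34 (adjusted p = 0.0614) with and -5.10 (adjusted p = 0.0151) without that library. In all 3 genes replicate 3 was the PAX6-/- library nearest to WT.

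**Figure D3:**
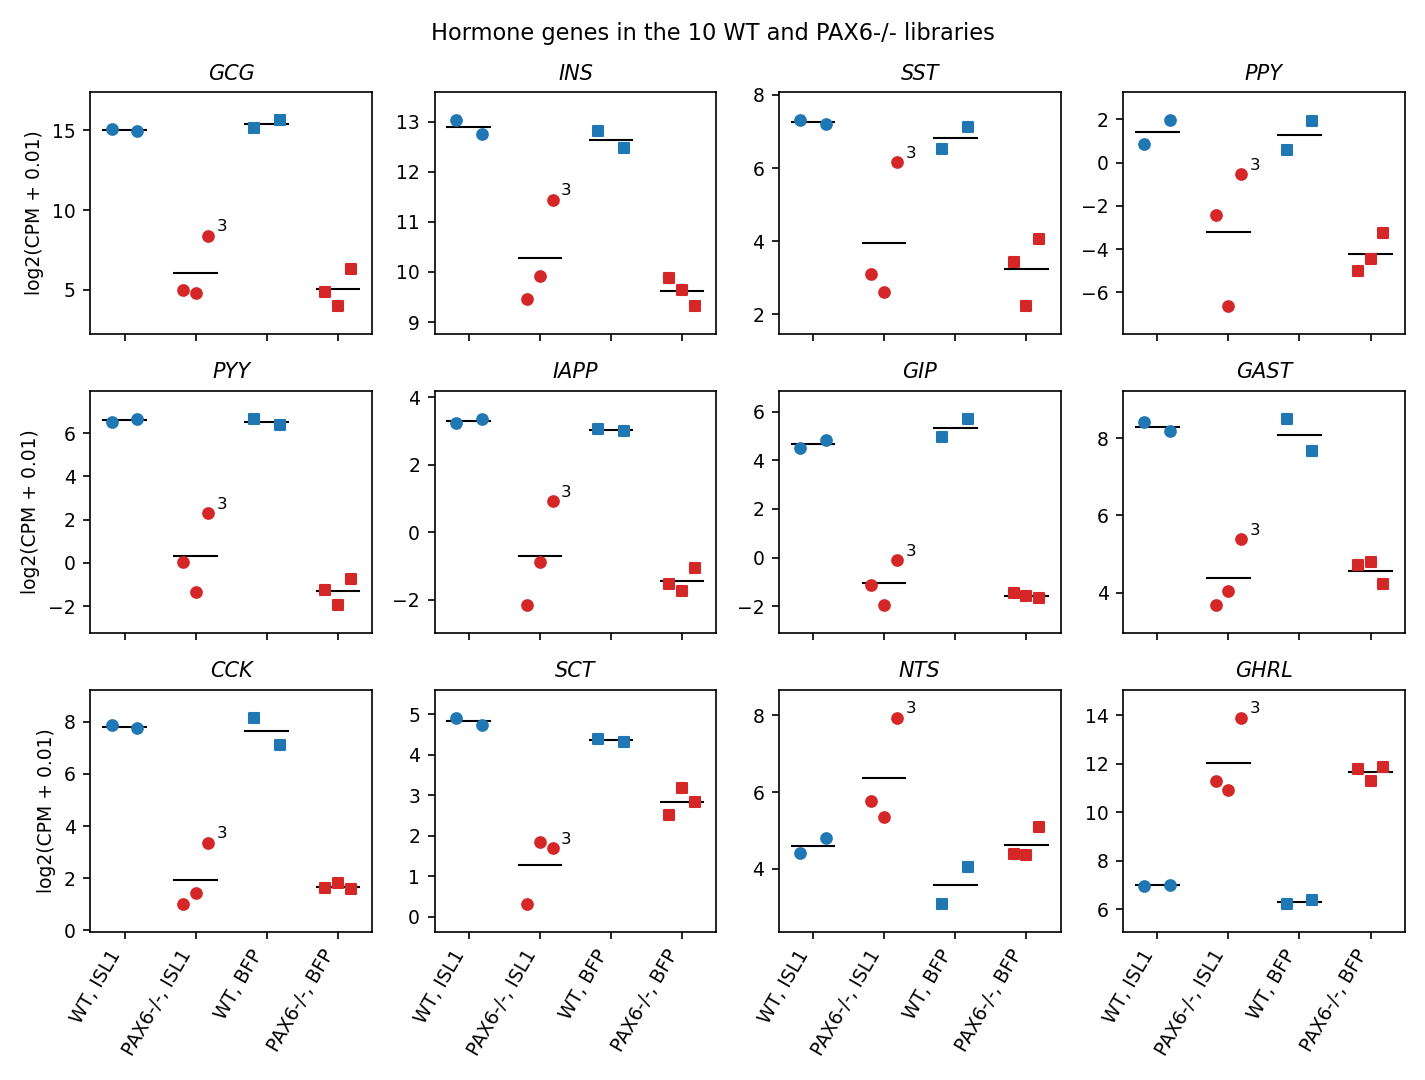
Log2 CPM (with a small offset) of 12 hormone genes in each WT and PAX6-/- library with the ISL1 vector (circles) and the BFP vector (squares), with the group mean as a line and PAX6-/- replicate 3 with ISL1 marked 3. GHRL is higher, and GCG, PYY, GIP, CCK, GAST, IAPP and SCT are lower, in every PAX6-/- library, with replicate 3 above the other PAX6-/- libraries in all of these except SCT.

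Of 20 beta cell genes, 4 fell and 2 rose, as many as without replicate 3, against 2.3% and 1.26% of all genes tested. The median log2 change of the 20 was -0.51, or -0.70 without that library. ERO1B, an oxidase that helps proinsulin fold, had 1329 and 1063 CPM in WT and 143, 101 and 87.5 CPM in PAX6-/-. SLC30A8, the zinc transporter of insulin granules, had 627 and 438 CPM in WT and 60.9, 54.6 and 50.2 CPM in PAX6-/-. The PAX6-/- libraries of both genes lay close together and far below WT. Their log2 fold changes were -3.44 (SE 0.29, adjusted p = 5.16e-06) and -3.27 (SE 0.27, adjusted p = 4.09e-06), or -3.293 and -3.205 without replicate 3. ENTPD3, a surface ectonucleotidase, had -4.76, and G6PC2 is the fourth that fell. NKX2-2, a homeodomain factor of endocrine cells, rose from 12.1 and 10.4 CPM to 31.9, 26.4 and 91.0 CPM (log2 fold change 2.15, or 1.37 without replicate 3). SLC2A1, a glucose transporter, rose by 1.00. Both lost the call without either WT library, with adjusted p reaching 0.181. SLC30A8 was picked after its values were seen.

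PDX1, the factor of pancreas and beta cells, had 102 and 83.6 CPM in WT and 67.0, 67.9 and 85.6 CPM in PAX6-/- (log2 fold change -0.33, adjusted p = 0.489). NKX6-1 was at -0.33 and MAFA at -0.13, and neither passed. These levels overlapped between the groups.

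Of 18 alpha cell genes, 3 fell and 0 rose (4 and 0 without replicate 3), with a median of -0.12, or -0.83 without that library. GC, the vitamin D-binding protein, had 62.4 and 70.6 CPM in WT and 3.20, 5.32 and 6.59 CPM in PAX6-/-, a log2 change of -3.72 (SE 0.61, adjusted p = 0.0024). DPP4, a peptidase that cleaves incretins, was at -2.17 and PLCE1, a phospholipase, at -1.36. Both lost the call without either WT library, and DPP4 also without PAX6-/- replicate 1, with adjusted p reaching 0.218 and 0.386. TTR, transthyretin, went from 4422 and 3541 CPM in WT to 1180, 857 and 6949 CPM in PAX6-/-, and its log2 change of -0.41 became -1.97 (adjusted p = 0.0376) without replicate 3.

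Of 12 genes of delta and PP cells, 4 fell and 0 rose, with and without replicate 3. Their median was -0.56, or -0.42 without that library. HHEX, the delta cell factor, had 88.5 and 105 CPM in WT and 26.2, 25.8 and 46.8 CPM in PAX6-/-, a log2 change of -1.56 (SE 0.31, adjusted p = 0.008), or -1.90 without replicate 3. AQP3, a water channel, was at -1.55, THSD7A at -1.36 and ETV1, an ETS factor, at -1.13. HHEX lost the call without WT replicate 2 (adjusted p = 0.0999), and AQP3, THSD7A and ETV1 without either WT library, with adjusted p reaching 0.132.

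Of 12 epsilon cell genes other than GHRL, 2 rose and 1 fell, with a median of 1.04, or 0.49 without replicate 3. MBOAT4, the enzyme that attaches the fatty acid of active ghrelin, had 2.81 and 2.17 CPM in WT and 7.95, 6.12 and 12.6 CPM in PAX6-/-, a log2 change of 1.83 (SE 0.37, adjusted p = 0.00894). ACSL1, which activates long-chain fatty acids, had 127 and 115 CPM in WT and 691, 442 and 506 CPM in PAX6-/-, a log2 change of 2.17 (adjusted p = 0.041). PHGR1 fell by 1.68 on the log2 scale. No PAX6-/- library of the 3 genes lay within the WT range. MBOAT4 lost the call without either WT library (adjusted p up to 0.157). ACSL1 also lost it without PAX6-/- replicate 1 or 3 (up to 0.294), and PHGR1 without PAX6-/- replicate 1 or 2 or either WT library (up to 0.262). Of 16 enterochromaffin cell genes, 1 fell, SLC6A4, and 0 rose. TPH1, the serotonin-making hydroxylase, was at 0.99 and did not pass.

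NEUROG3 had 128 and 102 CPM in WT and 663, 584 and 1338 CPM in PAX6-/-, a log2 change of 2.90 (SE 0.39, adjusted p = 0.000425), or 2.44 without replicate 3. Each PAX6-/- library was several times above both WT libraries. It and SOX4, a partner in the endocrine programme (log2 fold change 1.02, lost without either WT library, adjusted p up to 0.113), were the 2 of 13 endocrine progenitor genes that rose, and 0 fell. Of 15 pancreatic progenitor genes, 1 rose, SOX2, a factor of foregut and neural progenitors. It had 11.2 and 11.6 CPM in WT and 72.2, 48.9 and 142 CPM in PAX6-/-, a log2 change of 2.95 (SE 0.49, adjusted p = 0.00263). SOX9 (-0.19) and GATA4 (0.13) did not pass. Of 23 endocrine transcription factors tested, 0 passed in edgeR in either direction, with 6 at an unadjusted p under 0.05, 2 called by DESeq2 and 10 by voom, and their median was -0.15. Factors on other lists are not among the 23, such as NEUROG3, SOX4 and NKX2-2, which rose, and HHEX and ETV1, which fell. NEUROD1 was at -0.23, RFX6 at -0.24, PAX4 at 0.66 and INSM1 at 0.27. Of 24 factors of gut, stomach and brain, 2 rose, HELT and SOX21 (2.60), and 0 fell. SOX21 lost the call without PAX6-/- replicate 1 or either WT library (adjusted p up to 0.25). SOX21-AS1, which overlaps it on the opposite strand, rose by 2.80, and these genes cannot be told apart without a strand setting.

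Of 28 islet receptors tested, 5 fell and 1 rose (6 and 0 without replicate 3), with a median of -0.74, or -0.51 without that library. Over all genes tested, 2.3% fell and 1.26% rose. Beside FFAR1 and CASR, the receptors that fell were PTGER3, a prostaglandin receptor, GPR119, a lipid receptor of islet and gut hormone cells, and LPAR1. PTGER3 had 137 and 67.2 CPM in WT and 8.30, 7.15 and 6.33 CPM in PAX6-/-, a log2 change of -3.81 (SE 0.34, adjusted p = 7.52e-06). GPR119 had 259 and 193 CPM in WT and 46.1, 47.1 and 44.4 CPM in PAX6-/- (log2 fold change -2.30, adjusted p = 0.000111). LPAR1 was at -2.26 (adjusted p = 8.31e-05). The PAX6-/- libraries agreed closely in PTGER3 and GPR119, and all 5 receptors passed whichever library was left out. GPR119 and LPAR1 were picked after their values were seen. FFAR4, another fatty acid receptor, rose by 2.25 but was at 1.28 without replicate 3 (adjusted p = 0.126). It also lost the call without either WT library (adjusted p up to 0.29). GLP1R was at -0.83 and did not pass.

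Of 15 KATP, calcium and sodium channel genes, 2 fell and 0 rose, against 2.3% and 1.26% of all genes tested. Both that fell encode subunits of the KATP channel that couples glucose to secretion. ABCC8 had 824 and 519 CPM in WT and 252, 282 and 192 CPM in PAX6-/- (log2 fold change -1.47, adjusted p = 0.00889). KCNJ11 had 50.6 and 39.7 CPM in WT and 23.4, 22.7 and 23.7 CPM in PAX6-/- (log2 fold change -0.96, adjusted p = 0.0128). All PAX6-/- libraries were below both WT libraries, and both genes lost the call without WT replicate 1 (adjusted p = 0.189 and 0.196). With the BFP vector neither passed (-0.74 and -0.45), and the difference between vectors did not pass either. Of 22 potassium channels, 2 fell, KCNK16 (-1.36) and KCNK1 (-1.37). KCNK1 lost the call without either WT library (adjusted p up to 0.0876).

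Of 19 granins and genes of prohormone processing, 1 fell, VGF (-1.48), and 0 rose. Without replicate 3, 5 fell, and SCG2 was then at -1.40 (adjusted p = 0.00365), SCGN at -1.54 and SCG5 at -2.40. VGF lost the call without PAX6-/- replicate 1 or 2 or either WT library (adjusted p up to 0.21). CHGA, chromogranin A, had 18680 and 15310 CPM in WT and 10450, 10300 and 26300 CPM in PAX6-/-, so replicate 3 was above and replicates 1 and 2 were below WT. Of 28 genes of the exocytosis machinery, SV2C rose and SYT7 fell (-0.996), and among the leave-outs SYT7 passed only without WT replicate 2 (adjusted p up to 0.626). Of the 11 zinc transporters on their list, which holds neither SLC30A8 nor SLC39A8, 0 passed in edgeR in either direction, with 4 at an unadjusted p under 0.05, 0 called by DESeq2 and 3 by voom. SLC39A8, picked after its values were seen, fell (-1.91, adjusted p = 0.00109).

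**Figure D4:**
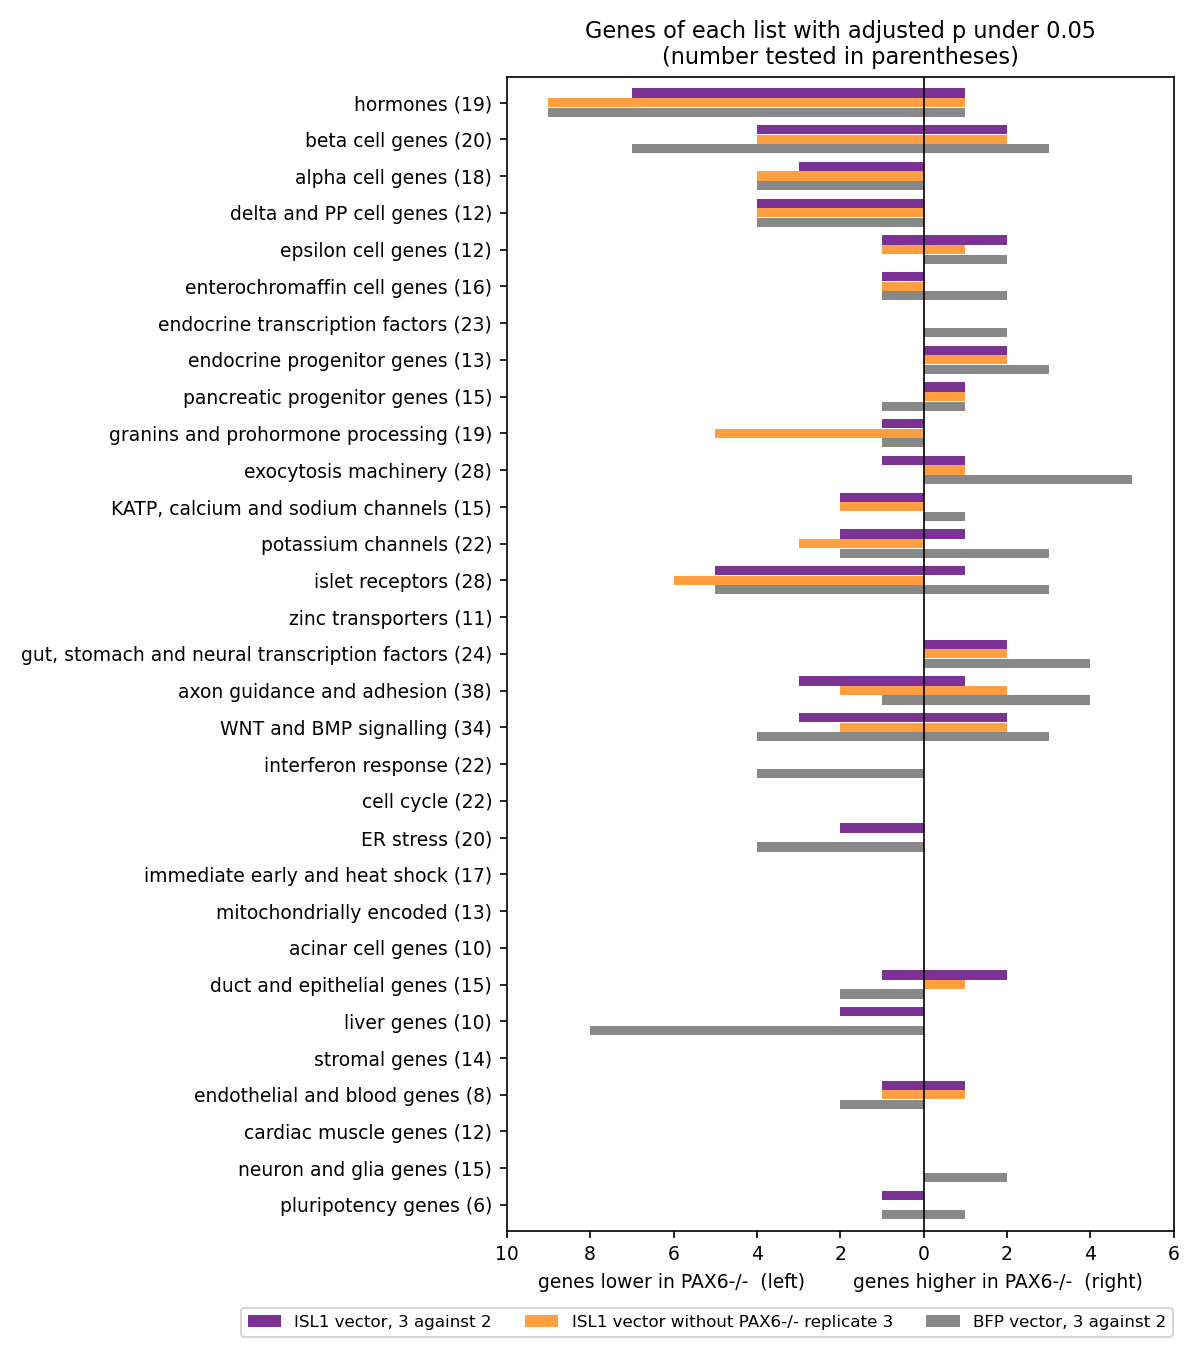
For each of the 31 gene lists, the number of genes lower (left) and higher (right) in PAX6-/- at an adjusted p under 0.05 with the ISL1 vector, with that vector without PAX6-/- replicate 3, and with the BFP vector. The hormone list has 7 falls with the ISL1 vector and 9 without replicate 3, while 2.3% and 1.86% of all genes tested fell.

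Outside the endocrine lists, 4 of 38 genes of axon guidance and adhesion passed, against 3.56% of all genes tested. NTNG1, netrin G1, had 29.3 and 21.9 CPM in WT and 1.67, 2.33 and 1.72 CPM in PAX6-/- (log2 fold change -3.74, adjusted p = 6.35e-06). SEMA3D was at -2.70 (lost without WT replicate 1, adjusted p = 0.112) and CNTN1 at -2.19 (lost without PAX6-/- replicate 3 or either WT library, adjusted p up to 0.154). EPHA5 was at 2.60 and lost the call in 4 of 5 leave-outs, all but that of replicate 3, with adjusted p reaching 0.34. Of 34 genes of WNT and BMP signalling, GREM1 (-4.31), SMAD7 (-2.08) and SMAD6 (-1.58) fell, and NKD1 (1.72) and LGR5 (2.49) rose. GREM1 and SMAD7 lost the call without WT replicate 1 (adjusted p = 0.0946 and 0.0737). NKD1 lost it without either WT library (adjusted p up to 0.195), LGR5 also without PAX6-/- replicate 1 (up to 0.266), and SMAD6 in all leave-outs but that of PAX6-/- replicate 2 (up to 0.216). Of 20 ER stress genes, HSPA5 (-0.59) and DNAJC3 (-0.93) fell, but neither passed without replicate 3 (adjusted p = 0.064 and 0.0668) or without either WT library (up to 0.295 and 0.268). HSPA5 lost the call without any 1 of the 5 libraries. None of the 22 interferon, 22 cell cycle and 17 immediate early and heat shock genes passed in edgeR, with 10, 0 and 3 at an unadjusted p under 0.05. DESeq2 called 4, 0 and 1 of them and voom 13, 0 and 4. The interferon list had a median of -0.79, or -0.76 without replicate 3, and 4 of its 22 genes fell with the BFP vector. Its zero holds for the listed genes only. IFIH1 (-1.66, adjusted p = 0.000152), IRF8 (-2.94, adjusted p = 0.00346) and TICAM1 (-1.73, adjusted p = 0.000842) are not on it and fell. These genes were picked after their values were seen. Of 13 mitochondrially encoded genes 0 passed in edgeR or DESeq2, 0 had an unadjusted p under 0.05 and voom called 2.

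Markers of other cell types that a culture could hold were counted too, beside shares over all genes tested of 1.26% higher and 2.3% lower. Of 15 duct and epithelial genes, LCN2 (3.67) and MUC1 (1.95) rose and CLDN4 (-0.998) fell, and their summed level was 4468 to 5267 CPM in WT and 3629 to 7795 CPM in PAX6-/-. Without replicate 3, LCN2 passed (adjusted p = 0.0111) and MUC1 and CLDN4 did not (0.0979 and 0.0524). LCN2 lost the call without either WT library, MUC1 also without PAX6-/- replicate 1 and CLDN4 without any 1 of the 5 libraries, with adjusted p reaching 0.385. LCN2 and MUC1 were at most at 1.30 and 3.54 CPM in any of these libraries. Of 10 liver genes, ALB (-1.89) and FGA (-1.70) fell, but neither passed without replicate 3 (adjusted p = 0.0609 and 0.0898) or without either WT library (up to 0.192 and 0.237), nor FGA without PAX6-/- replicate 2. The summed level was 10690 to 12850 CPM in WT and 6004 to 7604 CPM in PAX6-/-. With the BFP vector 8 of the 10 liver genes fell, against 3.26% of all genes tested. Among these were ALB (-2.50, adjusted p = 0.00276 in edgeR) and FGA (-1.89, adjusted p = 0.014). Of 8 endothelial and blood genes tested, KDR fell (-3.83, adjusted p = 0.00113) and CLDN5 rose. Of 6 pluripotency genes, DPPA4 fell (-2.67), but lost the call without PAX6-/- replicate 1 or 3 or either WT library (adjusted p up to 0.142). On the lists of acinar, stromal, cardiac muscle and neuron and glia genes, 0 passed in edgeR. At an unadjusted p under 0.05 there were 4, 2, 6 and 5, while DESeq2 called 2, 0, 5 and 1 and voom 1, 4, 2 and 6. The 12 cardiac muscle genes summed to 25.5 to 28.1 CPM in WT and 32.5 to 246.5 CPM in PAX6-/-, with ACTC1 at 96.2 CPM in replicate 3 and at most 6.05 CPM in the other 4 libraries. The 14 stromal genes summed to 4455 to 6604 CPM in WT and 553.7 to 5095 CPM in PAX6-/-. The part of these cell types in the other results was not tested.

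With the BFP vector, in libraries that share none with the comparison above, 1425 genes (5.51%) passed, 582 (2.25%) higher and 843 (3.26%) lower in PAX6-/-. Both comparisons come from 1 model of all 21 libraries and share its estimate of spread, so their calls are not independent. Leaving out PAX6-/- with ISL1 replicate 3, which is not in the BFP groups, gave a BFP count of 2327. Genes called with both vectors numbered 534, which is 57.92% of the 922 and 37.47% of the 1425, and all 534 had the same sign. Of the 922 genes, 910 (98.7%) had the same sign with the BFP vector, against 64.93% of all genes tested. The BFP groups did not overlap, in the same direction, in 848 of the 922 (91.97%). Over all genes tested, 48.45% had no overlap in either direction, which is a wider measure than that for the 922. Across the 25884 genes, which are not independent and whose libraries share line and protocol, the 2 sets of log2 fold changes had a Pearson r of 0.584, or 0.611 without replicate 3. A set of 388 genes, 122 higher and 266 lower, was called with the ISL1 vector, without replicate 3 and with the BFP vector.

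The leading genes moved the same way with both vectors. GCG had 36250 and 51320 CPM in WT with BFP and 29.1, 15.7 and 77.9 CPM in PAX6-/- with BFP, a log2 change of -10.06. GHRL had 74.5 and 83.6 CPM in WT with BFP and 3481, 2519 and 3773 CPM in PAX6-/- with BFP, a log2 change of 5.36. The 3 PAX6-/- libraries with BFP lay close together in GHRL, unlike those with ISL1. NEUROG3 was at 2.83, HELT at 7.44, FFAR1 at -8.42 and PTGER3 at -3.83 with the BFP vector. The difference between the vectors in the PAX6-/- effect was itself tested, and 0 genes (0.0%) passed in edgeR, with 916 at an unadjusted p under 0.05. DESeq2 called 8 genes and limma voom with quality weights 136. For GHRL the difference was 0.33 on the log2 scale (unadjusted p = 0.697), and for GCG it was 2.12 (unadjusted p = 0.12).

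**Figure D5:**
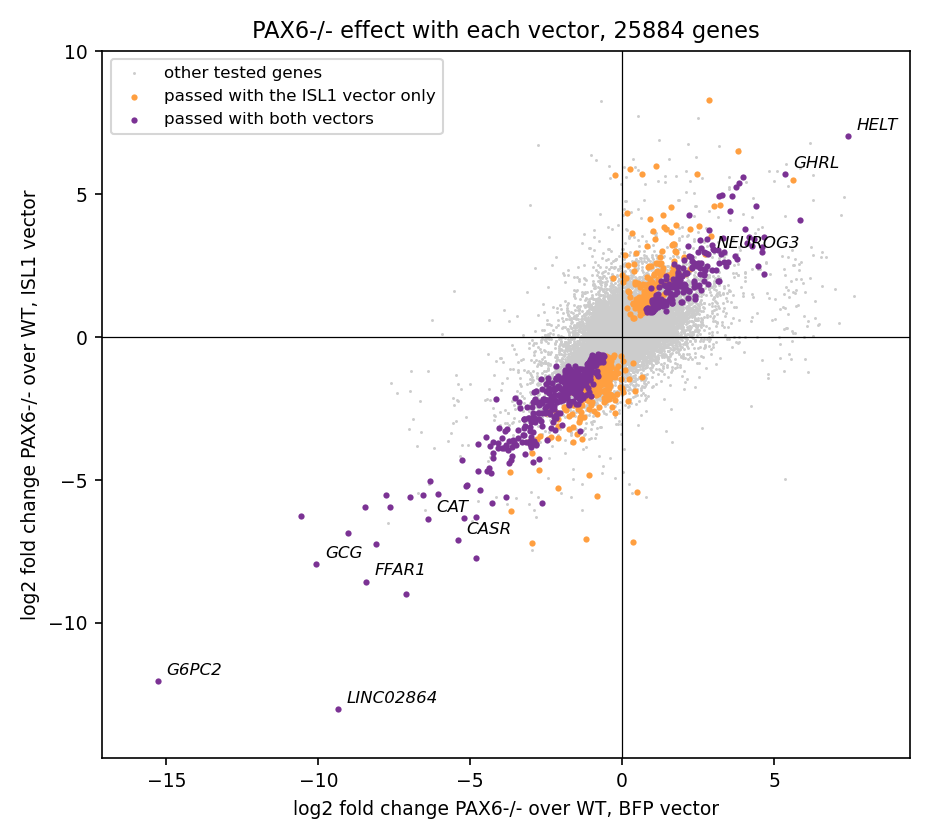
Log2 fold change of PAX6-/- over WT with the ISL1 vector (vertical) against the BFP vector (horizontal) for 25884 genes, with genes called with the ISL1 vector alone and with both vectors in colour. The 534 genes called with both lie in the lower left and upper right quadrants, and 910 of the 922 coloured genes have the same sign on both axes.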

How the data were processed

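The authors deposited raw read counts per gene for 21 libraries, per the file headers in the layout of featureCounts, and the submitters' processing notes name STAR 2.7.11b, featureCounts 2.1.1 and GRCh38. The annotation release, strand setting and handling of reads with several hits are not given in the sources used here. Libraries were made with SMART-Seq v4, per the labels' protocols. Of 62700 genes 62699 were used, leaving out ANK2, whose line is split in 3. All 62699 IDs matched a symbol. Library totals were 36.8 to 60.2 M counts.

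Counts were scaled by TMM and tested in edgeR 4.0.16 (R 4.3.3) by quasi-likelihood, with Benjamini-Hochberg adjustment over 25884 genes (filterByExpr, minimum 10 counts, total 15). All 21 libraries entered 1 model with a coefficient per group. The common biological coefficient of variation was 0.334, and the prior count 0.125. Where a group had no reads, 3 counts per library served as the floor, for counting error only. CPM values are not divided by gene length.

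Named genes are ISL1, PAX6, PDX1, 5 hormones, the 12 largest rises and 12 largest falls averaging 10 CPM or more where higher and without overlap, and up to 3 rises and 3 falls in each of 31 lists holding 565 genes. The comparison, lists and rule were chosen with earlier results of these data known. Alternatives were leaving out each library, only the groups compared, RLE scaling, no filter, DESeq2 1.42.0, limma 3.58.1 voom with quality weights, and a replicate block. Results of some genes are not reported here.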

Additional observations from a re-analysis of the deposited data

How the results depend on the processing

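The count of 922 genes with the ISL1 vector was 185 to 1925 when 1 library was left out, the highest without PDX1-/- with ISL1 replicate 4, which enters only the shared spread. It was 52 with only the groups compared (2 higher, 50 lower), 920 with RLE scaling, 1034 without the filter, 1807 in DESeq2 and 4230 in limma voom with quality weights. Chosen after seeing the data, leaving out both PAX6-/- with ISL1 replicate 3 and PDX1-/- with ISL1 replicate 4 gave 3409 genes, which include 916 of the 922, and only the groups compared without PAX6-/- replicate 3 gave 3607. The BFP count of 1425 was 285 to 2967 in the leave-outs, 4778 with only the groups compared, 2455 in DESeq2, 6710 in voom and 6535 without both libraries. The difference between vectors was 0 genes in every leave-out, 8 in DESeq2, 136 in voom and 40 without both libraries.

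With the library number as a replicate block, 1816 genes passed with the ISL1 vector, 3358 with the BFP vector and 0 in the difference. Deviations of same-numbered libraries had r of 0.165 for number 1 and -0.171 for number 2, and with 2 shared numbers the pairing is not shown. No call among the 125 named genes reversed in direction. Genes that did not pass could change sign, as GATA4 did, with log2 changes of -0.18 to 0.52 across the leave-outs. With only the groups compared, 60 lost the call, without WT replicate 1 47, without WT replicate 2 41, and without PAX6-/- replicate 3 14. The causes were not tested. Among the 5 libraries compared, leaving out either WT library lowered the count most. Depth was not varied.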
